A study of Mus musculus with 28 samples.

Results

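The granule, lysozyme and acute phase genes described here are 10 genes of innate defence, Lyz1, Lyz2, Hp, S100a8, S100a9, Lcn2, Camp, Ltf, Mpo and Elane, chosen by their symbols from the 55450 genes of the RNA-seq table. The libraries came from the mouse Pre-B line C10, which holds an inducible fusion of rat C/EBPα with the hormone-binding part of the estrogen receptor (C/EBPαER), so the transgene was present at every time point, 0h included. RNA-seq was available for 3 biological replicates of uninduced cells (0h) and for 3 replicates at each of 1h, 12h and 48h after addition of 100 nM β-estradiol with the cytokines IL-3 and CSF-1, the treatment that turns these cells into macrophages. All libraries derive from this cell line, and the effects of β-estradiol and of the cytokines cannot be told apart in this design. Promoter Capture Hi-C (PCHi-C), which lists the chromosomal regions in contact with captured promoters, was available as 1 list of interactions per time point, made by the authors from merged replicates.

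The products of these genes are stored or secreted by myeloid cells. Mpo and Elane encode the peroxidase and the elastase of the azurophil (primary) granules, which are filled at the promyelocyte stage, whereas Camp, Ltf and Lcn2 encode cathelicidin, lactoferrin and lipocalin 2 of the specific (secondary) granules of maturing neutrophils. Lyz2 encodes the lysozyme of macrophages and neutrophils and Lyz1 that of intestinal Paneth cells, S100a8 and S100a9 encode the subunits of calprotectin, and Hp encodes haptoglobin, the plasma protein that binds free haemoglobin and rises in the acute phase response. C/EBP family proteins are well known activators of granule and acute phase genes.

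The identity of the cells was checked with marker genes. The summed level of 8 macrophage markers lay between 2.44 and 3.57 TPM (transcript abundance relative to the whole library) at 0h and between 551 and 682 TPM at 48h, and that of 9 Pre-B markers fell from between 269 and 305 TPM to between 22.0 and 32.0 TPM. Mmp12, macrophage elastase, alone made up between 409 and 575 TPM of the macrophage sum at 48h. The mannose receptor gene Mrc1 overlapped between 0h (0.31 to 0.57 TPM) and 48h (0.42 to 0.81 TPM), and Adgre1 was listed at no more than a mean of 0.0967 TPM at any time point. The 6 neutrophil markers summed to at most 1.53 TPM in any library and the 4 promyelocyte markers to at most 3.33 TPM, nearly all of it Prtn3, while the promyelocyte genes Ctsg and Ms4a3 and the neutrophil gene Retnlg were listed at 0 in all 12 libraries. The eosinophil, T and NK, and erythroid markers summed to at most 0.19, 0.17 and 0.93 TPM.

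Between 70.3% and 82.9% of a library's TPM went to 2 ribosomal RNA genes, and the share left for other genes differed between time points. The median log2 fold change of the 16415 genes tested against 0h was 0.59 for 1h, 0.34 for 12h and -0.18 for 48h, and that of 48h against 12h was -0.62, and each of these medians lay within 0.1 of 0 after median-of-ratios scaling, which aligns the libraries on their median gene. Values after this scaling are given below where it ended or added a call described here, or turned the direction of one of the 10 genes. Replicate 3 stood apart, with the lowest ribosomal share of its time point (76.9%, 70.3%, 72.8% and 75.7% from 0h to 48h), and its libraries deviated together from their time points in 5 of 6 pairs (correlation over 0.1). Without replicate 3 at every time point the number of the 10 genes called was 1, 5 and 3 against 0h and 1 at 48h against 12h, the same as with it. TPM hold no record of depth, and Cd63 and S100a11, genes that most cell types express, were listed at no more than 0.34 and 0.30 TPM in any library, so a value of 0 is reported only as a gene listed at 0. In these bulk samples, more cells that express a gene and more RNA per cell cannot be told apart.

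Of the 10 genes, 3 reached a mean of at least 1 TPM over the 12 libraries (Lyz2, Hp and Camp), and 6 were never above 0.5 TPM. At 0h 8 of the 10 were listed at 0 in every library. S100a9 and Mpo were listed at 0 in all 12 libraries, as were 54.1% of all genes in the table. Together the 10 genes summed to 1.49 ± 0.246 TPM (SD, n = 3) at 0h, 3.66 ± 0.308 TPM (SD, n = 3) at 1h, 264 ± 53.4 TPM (SD, n = 3) at 12h and 149 ± 23.2 TPM (SD, n = 3) at 48h. Lyz2 alone made up between 69.6% and 100.0% of that sum in every library.

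**Figure D1:**
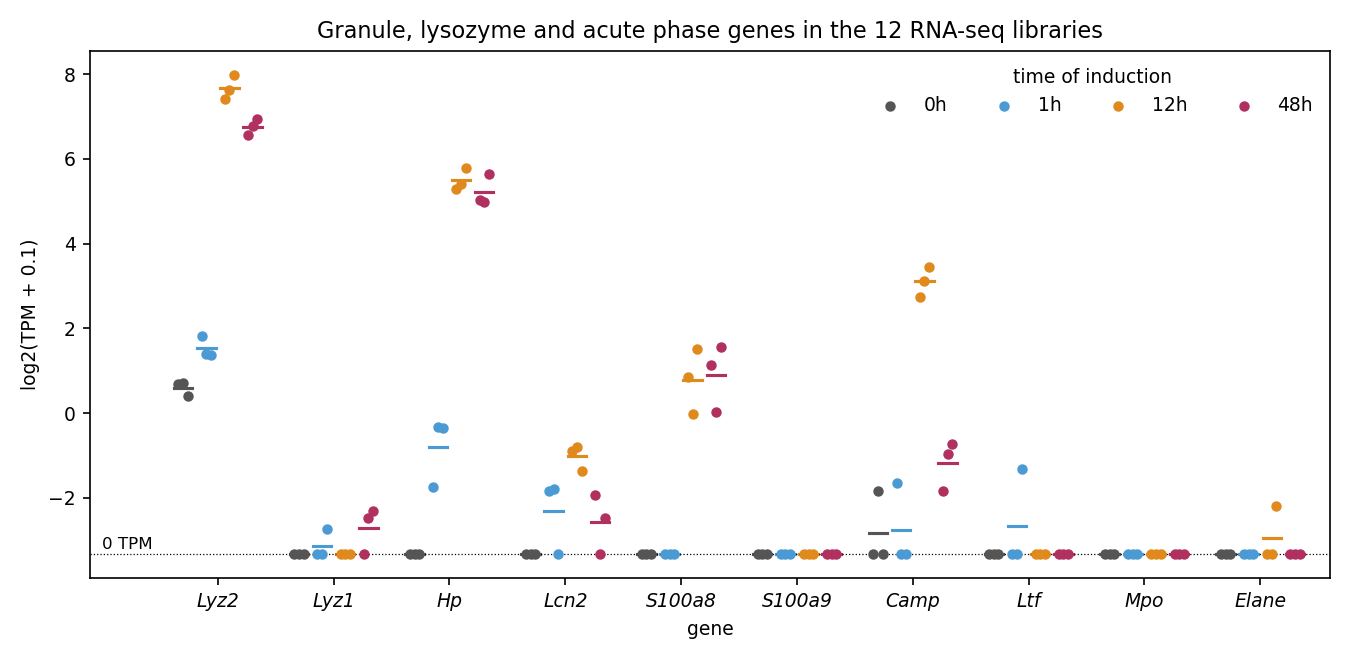
Level of each of the 10 genes in each library, as log2(TPM + 0.1) on the vertical axis, with the 3 replicates of each time point as points, their mean as a short line, and the dotted line at 0 TPM. Lyz2 and Hp were high at 12h and 48h, Camp was high at 12h and low again at 48h, and Mpo and S100a9 lay at 0 TPM throughout.

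The test was limma's moderated test of log2(TPM + 0.1), with p-values adjusted by Benjamini-Hochberg over all genes tested. A gene was called where the adjusted p was under 0.05 and the log2 fold change was beyond 2. Of the 10 genes, Lyz2, Hp, S100a8, Lcn2 and Camp passed the filter of a mean TPM of at least 0.1. Hp, S100a8, Lcn2 and Camp had 0h means under 0.1 TPM and passed it only through induced libraries. The filter thus favoured higher calls of these genes, and their calls against 0h and the counts that include them are given as descriptions. The other 5, Lyz1, S100a9, Ltf, Mpo and Elane, lay below it and were not tested. Against 0h, 1 of the 10 genes (Hp) was called higher at 1h, where 3.59% of all genes tested were called higher. At 12h 5 of the 10 were called higher (5.90% of all genes tested) and at 48h 3 of the 10 (6.43% of all genes tested). None of the 10 was called lower against 0h, but the 8 of them listed at 0 in every 0h library could not be. Of all genes tested, 0.378%, 1.83% and 10.0% were called lower at 1h, 12h and 48h. All 3 induced libraries were above all 3 uninduced ones for 2 of the 10 genes at 1h (40.8% of all genes tested), for 5 at 12h (30.6%) and for 3 at 48h (19.2%). These 3 comparisons share the 0h libraries.

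The lysozyme genes Lyz1 and Lyz2 lie side by side on the minus strand of chromosome 10, 5.48 kb apart. In GENCODE on GRCm38, Lyz2 (ENSMUSG00000069516) spans chr10:117277331-117282321 and Lyz1 (ENSMUSG00000069515) chr10:117287797-117292868. Their transcripts are 96.0% identical (1211 of 1262 aligned bases), and their promoters (the 250 bases before the RefSeq start) are 80.6% identical. The promoters are shown because these near-copies differed in level. They are written 5′ to 3′ from RefSeq on GRCm38.p6, with capitals marking every match, on either strand, to the C/EBP letters TTNNGNAA.
Lyz2 chr10:117282273-117282522 (- strand): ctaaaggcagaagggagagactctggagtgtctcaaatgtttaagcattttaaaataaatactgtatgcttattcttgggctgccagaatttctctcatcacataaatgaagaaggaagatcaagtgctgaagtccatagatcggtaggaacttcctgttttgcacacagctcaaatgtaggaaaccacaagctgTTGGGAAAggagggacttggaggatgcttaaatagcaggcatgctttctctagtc
Lyz1 chr10:117292869-117293118 (- strand): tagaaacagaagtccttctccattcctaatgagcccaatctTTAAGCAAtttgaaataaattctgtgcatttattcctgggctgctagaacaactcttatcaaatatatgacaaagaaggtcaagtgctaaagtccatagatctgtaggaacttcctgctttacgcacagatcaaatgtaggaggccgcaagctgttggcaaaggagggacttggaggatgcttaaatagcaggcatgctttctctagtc

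Lyz2 stood at 1.51, 1.54 and 1.23 TPM in the 0h libraries and at 3.41, 2.54 and 2.5 TPM at 1h. At 12h it reached 171, 197 and 253 TPM, and at 48h 94.7, 110 and 122 TPM. No 2 time points overlapped. By mean level Lyz2 moved from rank 7413 of all genes at 0h to rank 104 at 12h and rank 121 at 48h. Its mean was 145 times that of 0h at 12h (log2 fold change 7.07 ± 0.193 (SE), adjusted p = 1.55e-09) and 76.3 times at 48h (6.16 ± 0.193 (SE), adjusted p = 1.41e-09). At 1h the difference was smaller, a log2 fold change of 0.93 with an adjusted p of 0.00619, and scaling by the median of ratios left 0.29 with an adjusted p of 0.17. By contrast, Lyz1 was listed at 0.05 TPM in 1 library at 1h, at 0.08 and 0.10 TPM in 2 libraries at 48h, and at 0 in the other 9. Of the 100-base windows of the Lyz1 transcript, 2.06% also occur in Lyz2, so a read can mostly be assigned to its gene, but Lyz1 values this low remain uncertain beside Lyz2.

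The capitals mark 1 match in each lysozyme promoter, TTGGGAAA 55 bases before the start of Lyz2 and TTAAGCAA 209 bases before that of Lyz1. These letters are common. They were present in 36.8% of the 32851 RefSeq promoters of the same length and in 6 of the 9 promoters found for these genes. Hp was not in the promoter table used. The full palindrome TTGCGCAA, which is contained in the same letters, was in none of the 9 and in 0.164% of all promoters. For Lyz1 and S100a9 the RefSeq start is that of the GENCODE record, and for the other genes it lies inside that record.

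Hp (ENSMUSG00000031722, chr8:109575128-109579172, minus strand) was next to Lyz2 in level. Each uninduced library listed Hp at 0, and those of 1h at 0.20, 0.70 and 0.69 TPM. It reached 38.7, 42.6 and 55.4 TPM at 12h and 32.7, 31.7 and 49.7 TPM at 48h. Every induced library was above every 0h library, and the libraries of 12h and 48h overlapped. The adjusted p against 0h was 0.000633 for 1h, 2.31e-08 for 12h and 9.82e-09 for 48h. No fold change is given, since Hp was listed at 0 at 0h. The call at 1h rests on levels under 1 TPM and was lost when 1 TPM was added before taking logs in place of 0.1 (adjusted p = 0.0552). From 1h to 12h the mean of Hp rose from 0.53 to 45.6 TPM, a ratio of 86.0.

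Lcn2 (ENSMUSG00000026822, chr2:32384633-32388252, minus strand), whose product withholds iron from bacteria by binding their siderophores, stayed under 0.5 TPM in every library. Each uninduced library listed it at 0, and those of 1h at 0.18, 0.19 and 0 TPM. The values were 0.44, 0.47 and 0.29 TPM at 12h and 0.16, 0 and 0.08 TPM at 48h. The 12h libraries were the highest and did not overlap with those of any other time point. Lcn2 was called higher at 12h (adjusted p = 0.00555) and not at 48h (adjusted p = 0.272), and adding 1 TPM in place of 0.1 ended the 12h call. These levels were low beside Hp, the other acute phase gene among the 10.

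S100a8 and S100a9 lie 22.6 kb apart on chromosome 3, in the S100 gene cluster. S100a8 (ENSMUSG00000056054) spans chr3:90668978-90670035 on the plus strand and S100a9 (ENSMUSG00000056071) chr3:90692632-90695721 on the minus strand. Their promoters are shown because the transcripts of this pair, whose products work as a heterodimer, were not listed together. Capitals mark the C/EBP letters as above.
S100a8 chr3:90668821-90669070 (+ strand): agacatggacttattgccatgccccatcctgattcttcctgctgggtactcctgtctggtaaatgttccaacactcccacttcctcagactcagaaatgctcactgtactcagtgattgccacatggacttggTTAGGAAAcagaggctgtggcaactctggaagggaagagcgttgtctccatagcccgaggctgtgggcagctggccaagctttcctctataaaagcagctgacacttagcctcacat
S100a9 chr3:90695722-90695971 (- strand): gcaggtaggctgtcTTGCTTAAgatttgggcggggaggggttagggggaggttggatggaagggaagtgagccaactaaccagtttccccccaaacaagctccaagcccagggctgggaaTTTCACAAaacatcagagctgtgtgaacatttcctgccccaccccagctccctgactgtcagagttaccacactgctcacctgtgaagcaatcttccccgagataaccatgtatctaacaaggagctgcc

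S100a8 was listed at 0 in all 6 libraries of 0h and 1h. It was at 1.71, 0.88 and 2.75 TPM at 12h and at 2.1, 0.92 and 2.85 TPM at 48h. All 6 later libraries were above all 6 earlier ones, and 12h and 48h overlapped. S100a8 was called higher at 12h (adjusted p = 4.92e-05) and at 48h (adjusted p = 1.46e-05), and both calls were lost when 1 TPM was added before taking logs, which left log2 fold changes of 1.42 and 1.51. S100a9 was listed at 0 in all 12 libraries. The S100a8 promoter holds 1 match, 117 bases before the start, and that of S100a9 holds 2, at 236 and 130 bases. The letters alone were therefore present at the promoters of both genes.

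Camp (ENSMUSG00000038357, chr9:109847379-109849617, minus strand) was highest at 12h, as was Lcn2 at lower levels. It stood at 0, 0.18 and 0 TPM at 0h and at 0.22, 0 and 0 TPM at 1h. At 12h it was at 6.61, 8.64 and 10.8 TPM, and at 48h at 0.18, 0.41 and 0.50 TPM. The 12h libraries were far above all others, and those of 48h reached down to the highest 0h library. The log2 fold change was 5.93 ± 0.549 (SE) at 12h against 0h (adjusted p = 1.42e-05). At 48h against 0h it was 1.65 ± 0.549 (SE) with an adjusted p of 0.0301, which was short of a call. It was called after median-of-ratios scaling, at 2.02 with an adjusted p of 0.00571, and without the second 0h library, the only 0h library in which Camp was above 0, at 2.14 with an adjusted p of 0.00974. By mean level Camp ranked 15494 at 0h, 2079 at 12h and 10801 at 48h. Its promoter is shown because it holds no match to the C/EBP letters, which were also absent from the promoters of Mpo and Elane. The Camp promoter also holds no match to GAGGAA, the only spelling searched for sites of the myeloid factor PU.1. That spelling was present in 23.3% of all promoters. Shorter or other spellings of PU.1 sites were not searched for, so a lack of such sites is not claimed.
Camp chr9:109849457-109849706 (- strand): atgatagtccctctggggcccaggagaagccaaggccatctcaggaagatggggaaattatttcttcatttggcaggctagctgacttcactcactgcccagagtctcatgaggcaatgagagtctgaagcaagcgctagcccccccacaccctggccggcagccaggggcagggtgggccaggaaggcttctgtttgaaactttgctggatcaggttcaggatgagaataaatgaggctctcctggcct

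The remaining granule genes stayed at or near 0. Ltf (ENSMUSG00000032496, chr9:111019271-111042767, plus strand), whose product binds iron, was listed at 0.30 TPM in 1 library at 1h and at 0 in the other 11. Elane (ENSMUSG00000020125, chr10:79886247-79888215, plus strand) was listed at 0.12 TPM in 1 library at 12h and at 0 in the other 11. Mpo (ENSMUSG00000009350, chr11:87793581-87804413, plus strand) was listed at 0 throughout. None of these 3 genes was above 0 in more than 1 library. Prtn3, the neighbour of Elane 3.07 kb away and also a serine protease of azurophil granules, was at 1.32, 2.42 and 3.33 TPM at 12h, against 0, 0.36 and 0.21 TPM at 0h (log2 fold change 3.25 ± 0.697 (SE), adjusted p = 0.0047), and at 0.69, 0.44 and 1.19 TPM at 48h.

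In order of mean level, Lyz2 was above Hp, Hp above Camp and Camp above S100a8 at 12h. At 48h the order was Lyz2, Hp, S100a8 and Camp, with Camp below S100a8 in every library. The lowest Lyz2 value (171 TPM) lay above the highest Hp value (55.4 TPM) at 12h, and the same held at 48h (94.7 and 49.7 TPM). Within a library the ratio of Lyz2 to Hp does not depend on scaling. It was 4.42, 4.63 and 4.57 in the 12h libraries and 2.90, 3.47 and 2.45 in the 48h libraries. This ratio was looked at after the values of both genes had been seen and is given as a description.

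The comparison of 48h with 12h asks whether the genes held the level reached at 12h. Of the 10 genes, 1 (Camp) was called lower, where 5.28% of all genes tested were called lower, and none was called higher (1.91% of all genes tested). All 48h libraries were below all 12h libraries for 3 of the 10 (Lyz2, Lcn2 and Camp), as for 39.2% of all genes tested, and these 3 had an adjusted p under 0.05, as did 31.7% of all genes tested in this direction. Camp fell by 4.29 ± 0.549 (SE) on the log2 scale (adjusted p = 0.000141), to 0.0418 of its 12h mean, and the fall was 3.66 after median-of-ratios scaling (adjusted p = 0.000315). Lyz2 was lower at 48h by a log2 fold change of -0.92 ± 0.193 (SE) with an adjusted p of 0.00334, and its mean was 0.525 of that at 12h. After scaling the difference was -0.17 with an adjusted p of 0.39, so most of it moved with the median of all genes. Lcn2 differed by -1.56 (adjusted p = 0.0327) on values under 0.5 TPM, and by -1.17 (adjusted p = 0.132) after scaling. Lcn2 passed the filter only through its 12h libraries, which favoured a fall from 12h, so its difference is given as a description. For Hp (-0.28, adjusted p = 0.579) the sign turned after scaling (0.47, adjusted p = 0.337), and for S100a8 the log2 fold change was 0.13 (adjusted p = 0.868), or 0.84 (adjusted p = 0.195) after scaling.

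**Figure D2:**
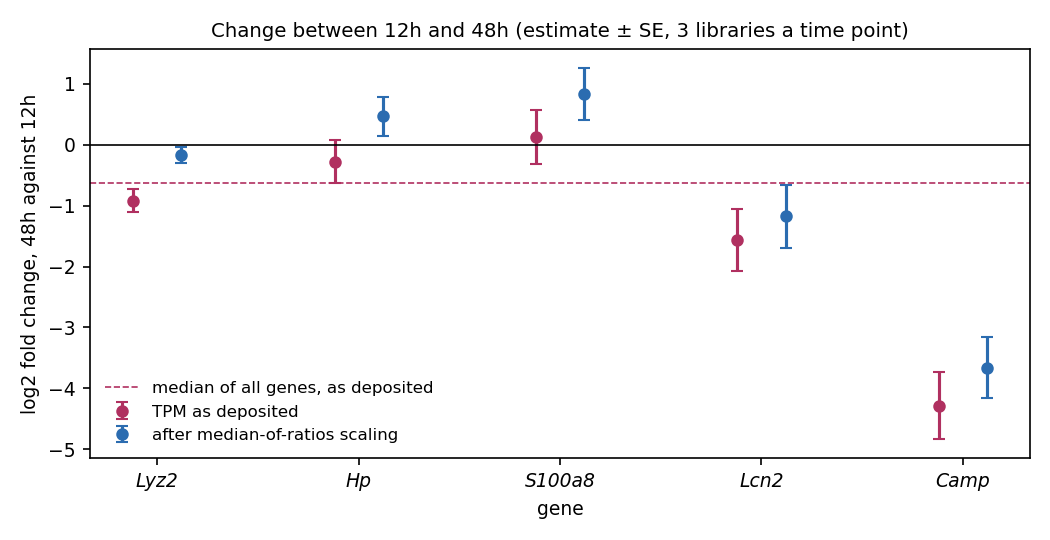
Log2 fold change of the 5 genes tested at 48h against 12h, with points for the limma estimate and bars for its SE, from TPM as deposited (red) and after median-of-ratios scaling (blue). The dashed line is the median of all genes tested (-0.62 as deposited), and Camp lies far below it under both scalings.

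Other genes of the same granules and pathways were counted from lists. Of 9 further genes listed for azurophil granules, which include genes whose products act on granule proteases, 4 passed the filter and were tested. All 4 were called higher at 12h (5.90% of all genes tested) and 3 at 48h (6.43%). The 4 were Ctsc, Srgn, Serpinb1a and Prtn3. After median-of-ratios scaling all 4 were called at 48h, where Prtn3 had a log2 fold change of 2.13 (adjusted p = 0.0195). Medians over the tested genes of a list are not given, since in some lists genes passed the filter only through the induced libraries. That favoured higher calls of those genes, so counts that include them are given as descriptions. Ctsc, the lysosomal protease cathepsin C that activates granule serine proteases, rose from a mean of 8.66 TPM at 0h to 33.0, 243 and 359 TPM at 1h, 12h and 48h (log2 fold change 5.36 at 48h, adjusted p = 3.41e-10). Srgn, the proteoglycan core serglycin, rose from 17.3 to 141 TPM at 12h and stood at 107 TPM at 48h. Neither of these genes is restricted to granulocytes.

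Serpinb1a, an inhibitor of neutrophil serine proteases, had a peak at 12h, as Camp did. It was at 0.48, 1.11 and 0.88 TPM at 0h, at 34.3, 44.3 and 62.0 TPM at 12h and at 4.30, 5.94 and 6.55 TPM at 48h. The fall from 12h to 48h was 3.02 on the log2 scale (log2 fold change -3.02, adjusted p = 4.26e-05). The 48h libraries nevertheless stayed above all 0h libraries (log2 fold change 2.67, adjusted p = 3.86e-05). Of the 9 genes, Ctsg, Ms4a3 and Bpi were listed at 0 in every library.

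Of 16 further genes of specific and gelatinase granules, 7 were tested. Of these, 3 were called higher at 12h (5.90% of all genes tested) and 5 at 48h (6.43%). Mmp8, Fcnb and Mmp9, which are among those called, were listed at 0 in every 0h library. They passed the filter only through induced libraries. Mmp8, neutrophil collagenase, was listed at 0 at 0h, at 0.31, 0.27 and 0.28 TPM at 1h, at 8.08, 5.84 and 6.88 TPM at 12h and at 36.2, 43.3 and 28.2 TPM at 48h. Unlike Camp it went on rising, by 2.35 on the log2 scale from 12h to 48h (adjusted p = 1.26e-05). Cybb, the membrane subunit of the phagocyte NADPH oxidase, rose from a mean of 2.75 TPM at 0h to 33.6 TPM at 1h, 98.4 TPM at 12h and 150 TPM at 48h (log2 fold change 5.74 at 48h, adjusted p = 2.57e-09). Adam8, a membrane metalloprotease of myeloid cells, rose only at 48h among the time points tested (mean 3.08 TPM, adjusted p = 0.000289 against 0h). The other 2 called were Fcnb at both times and Mmp9 at 48h, named after their values were seen. Chil3, Olfm4, Itgb2l and Fpr1 were listed at 0 in every library, and Ngp stayed at a mean of at most 0.0433 TPM at any time point.

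Of 18 further acute phase genes, 9 were listed at 0 in every library, among them Saa1, Crp and the fibrinogen genes Fga, Fgb and Fgg. Of the 18, 5 were tested, of which 2 were called higher at 12h (5.90% of all genes tested) and 1 at 48h (6.43%). The genes called, Orm1 and Orm3, were listed at 0 in every 0h library and passed the filter only through induced libraries. Orm1, which encodes the plasma protein orosomucoid, was listed at 0 at 0h, at 1.49, 1.18 and 2.16 TPM at 12h and at 2.09, 2.11 and 1.35 TPM at 48h (adjusted p = 1.19e-05 and 2.64e-06). Its near-copy Orm3 was called at 12h at 0.25, 0.34 and 0.32 TPM (adjusted p = 0.041), a call lost after scaling. The summed level of the 18 genes was at most 4.44 TPM in any library, less than Hp alone in every library of 12h and 48h.

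Of 14 further S100 family genes, 7 were tested, with 0 higher calls at 12h and 1 at 48h (5.90% and 6.43% of all genes tested). Scaling by the median of ratios added S100a10 to make 2 for 48h (log2 fold change 2.33, adjusted p = 2.02e-07). The gene called was S100a4, at 0, 1.21 and 0.81 TPM at 0h and 8.49, 5.38 and 12.4 TPM at 48h (adjusted p = 0.00149). At an adjusted p under 0.05 alone, S100a10 was higher at 12h (log2 fold change 0.91, adjusted p = 0.00442). It was at 7.94, 5.93 and 6.05 TPM at 0h and at 24.1, 24.0 and 27.5 TPM at 48h (1.92, adjusted p = 8.99e-06), and it was named after its values were seen. All 7 further genes of the lysozyme family, which include those expressed in testis, were listed at 0 in every library.

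Among 8 regulators and receptors of granulocytes, 5 were tested. Of these, 2 were called higher and 1 lower at 12h (5.90% and 1.83% of all genes tested), and 2 higher at 48h (6.43%). Csf2rb, the shared signalling chain of the IL-3 and GM-CSF receptors, rose from 2.05, 1.85 and 3.04 TPM at 0h to 32.6, 32.0 and 34.1 TPM at 1h and to a mean of 61.4 TPM at 12h (log2 fold change 4.70, adjusted p = 1.05e-07). Csf2ra, the GM-CSF receptor α chain, rose from a mean of 1.18 TPM to 12.4 TPM at 12h. Cxcr4, a receptor that retains immature leukocytes in bone marrow, fell from a mean of 5.09 to 0.61 TPM at 12h (log2 fold change -2.91, adjusted p = 3.72e-05). Before that, at 1h, its mean was 11.9 TPM (1.23, adjusted p = 0.0148, or 0.57 and 0.185 after scaling). At 48h its mean was 1.61 TPM, and Cxcr4 was not called against 0h (-1.59, adjusted p = 0.00123). Gfi1, a repressor needed for neutrophil development and named after its values were seen, was called higher at 1h (means 0.517 and 4.96 TPM, adjusted p = 0.000246) and lower at 48h against 12h (adjusted p = 0.000149). Cebpe, the C/EBP factor required for specific granules, was listed at 0 in every library, and Csf3r, the G-CSF receptor, had a mean of at most 0.107 TPM at any time point.

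**Figure D3:**
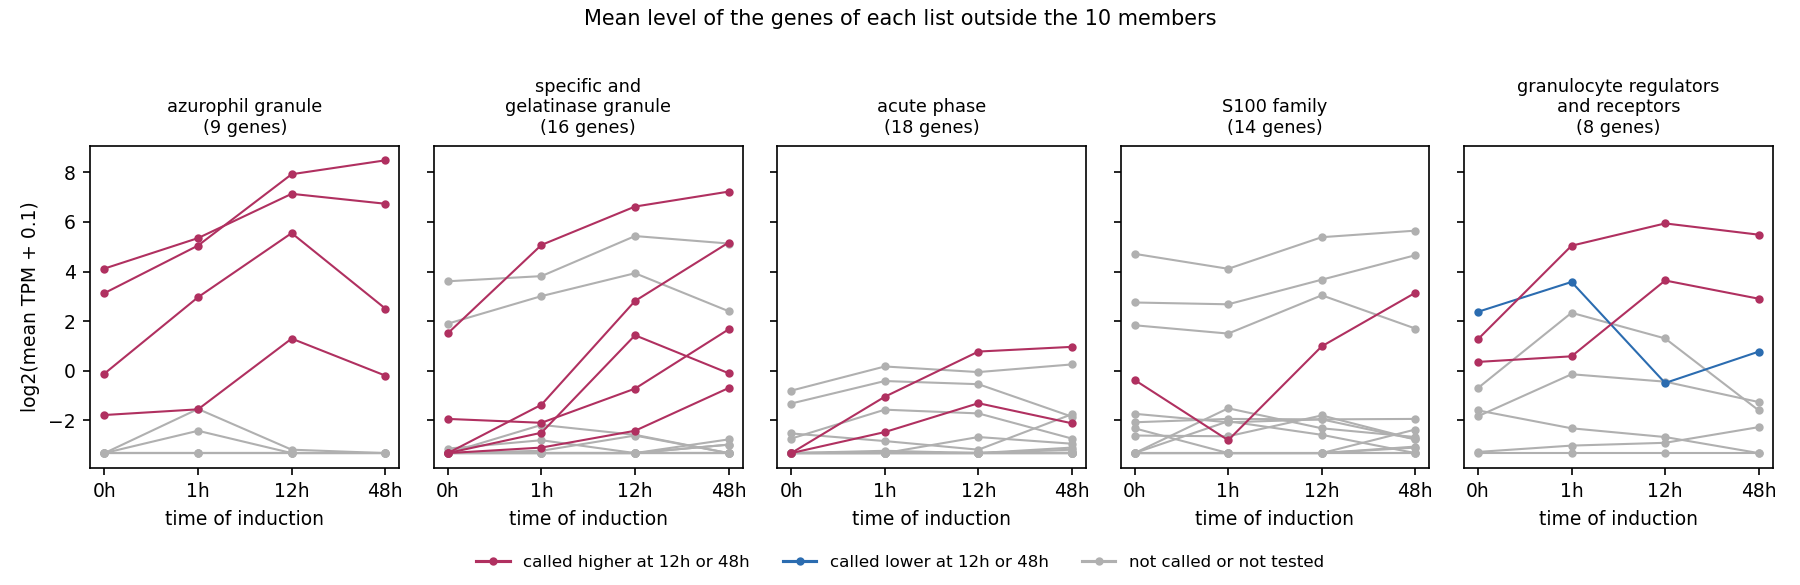
Mean level of each further gene of 5 lists at each time point, as log2(mean TPM + 0.1), with red lines for genes called higher and blue lines for genes called lower at 12h or 48h against 0h by limma on TPM as deposited, and grey lines for the others. In the azurophil list 4 of 9 genes are red (4 tested) and Serpinb1a turns down after 12h. In the acute phase list 2 of 18 are red (5 tested) and all stay low.

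Genes with the most similar course were taken by the Pearson r of log2(TPM + 0.1) over the 12 libraries, among the 9331 genes with a mean of at least 1 TPM. These values are descriptions, since the libraries of a time point share that time point and the high r of many genes follows its steps. Nearest to Lyz2 were Sla (r = 0.993), an adaptor protein of haematopoietic cells, Id2 (0.992), an inhibitor of E-box factors, Serpinb2 (0.991), Rab44 (0.988) and Plxnd1 (0.988). Nearest to Hp were Il1rn (0.988), the antagonist of the interleukin-1 receptor, Naip5 (0.986), a sensor of bacterial flagellin, Serpinb2 (0.983), Ctsc (0.983) and Igsf6 (0.983). Nearest to Camp were Clic1 (0.981), Ralb (0.963), Fhl3 (0.953), Sept9 (0.951) and Plau (0.940). The table holds Sept9 as a date, and it was identified by its gene ID. All 5 genes nearest to Camp were highest at 12h, but by less. Clic1, for example, had a log2 fold change of 1.24 at 12h against 0h (adjusted p = 4.12e-05) and of -0.84 at 48h against 12h (adjusted p = 0.000549). After median-of-ratios scaling these were 0.90 (adjusted p = 0.000112) and -0.093 (adjusted p = 0.602). For Ralb, Fhl3, Sept9 and Plau the scaled difference at 48h against 12h was -0.35, -0.55, -0.43 and -0.076. The adjusted p were 0.149, 0.0593, 0.0892 and 0.874. Camp kept a scaled difference of -3.66 (adjusted p = 0.000315). Between the genes themselves, r was 0.981 for Lyz2 and Hp, 0.821 for Lyz2 and Camp and 0.738 for Hp and Camp.

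The nearest protein-coding genes on each side were used to see whether the changes extended along the chromosome. The nearest gene to Hp, Txnl4b at 1.08 kb, had log2 fold changes of 0.23 at 12h and -0.27 at 48h (adjusted p = 0.729 and 0.64), and the genes flanking Lcn2, 1110008P14Rik and Ptges2, were not called either (-0.20 and -1.27 at 48h, adjusted p = 0.796 and 0.017). On the other side of Hp, Dhodh, an enzyme of pyrimidine synthesis 12.2 kb away, was called lower at 48h (1.90, 1.88 and 2.74 TPM at 0h, 0.35, 0.20 and 0.44 TPM at 48h, adjusted p = 3.81e-05). Beside Camp, Nme6 and the cell cycle phosphatase Cdc25a were called lower at 48h (adjusted p = 6.89e-05 and 4.03e-05), but the call of Cdc25a ended after median-of-ratios scaling (log2 fold change -1.89, adjusted p = 0.000211). Lower calls at 48h were made for 10.0% of all genes tested. Nme6, 4.26 kb from Camp, was not higher at 12h, with a log2 fold change of 0.32 and an adjusted p of 0.509. Beside Ltf, which stayed near 0, Ccrl2, an atypical chemokine receptor 11.7 kb away, was called higher at 12h and 48h (0.09, 0 and 0.11 TPM at 0h, 0.74, 1.07 and 1.56 TPM at 48h, adjusted p = 0.0003). The genes flanking Mpo, Tspoap1 and Lpo, were at no more than 0.26 and 0.02 TPM in any library.

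In the PCHi-C lists, 9 of the 10 genes had a captured promoter fragment. No fragment holding a start of Lyz2 was among the baits, so its contacts are not analysed here. The median over the 23193 genes with a bait was 5 contacts per list, with an upper quartile of 13. There is 1 list per time point, so differences between them have no replicate check and no test was made. Hp had 2, 3, 1 and 3 contacts at 0h, 1h, 12h and 48h, Lcn2 had 2, 1, 4 and 1, and Lyz1 had 2, 2, 0 and 1. Camp had a contact only in the 12h list, 1 with the promoter fragment of Spink8 39.2 kb away, and Ltf only in the 48h list. Hp and Camp had fewer contacts than the median of all genes in every list.

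S100a9, Mpo and Elane, which were listed at or near 0 TPM, had more contacts than the other genes at 0h and 1h, whereas Ltf and Lyz1, also near 0 TPM, had few. S100a9 had 27, 37, 17 and 47 contacts at 0h, 1h, 12h and 48h, and its gain of 20 from 0h to 48h was matched or exceeded by 1.77% of genes with a bait. Of the 47 at 48h, 24 were with fragments not listed at 0h, but only 2 of these lay more than 10 kb from a fragment listed at 0h. S100a8 had 10, 12, 10 and 12, counted from a second annotated start, since the fragment with the first base of the gene record was not among the baits. The S100a8 and S100a9 promoter fragments were listed in contact with each other at all 4 time points, and both were in contact with those of S100a14 and S100a16 at all 4.

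Mpo had 30, 28, 10 and 5 contacts over 2 captured fragments, which can share a partner. The fragment with the first base of the gene record alone had 18, 17, 6 and 4. The other fragment also held a start of Gm11505. Of the 30 at 0h over both fragments, 25 were not listed at 48h, and 13 of these had no 48h contact within 10 kb. Counted over all baits of a gene, a loss of 25 or more was seen for 1.10% of genes with a bait. Its partners in every list included the promoter fragments of Hsf5 and Rnf43. Elane had 23, 43, 25 and 13 contacts, of which 11 were in all 4 lists. At 0h, the only list with CHiCAGO scores (the confidence score of the interaction caller), 3 contacts of Elane and 1 of Mpo had a score of at least 10, and none of the other genes had such a contact.

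**Figure D4:**
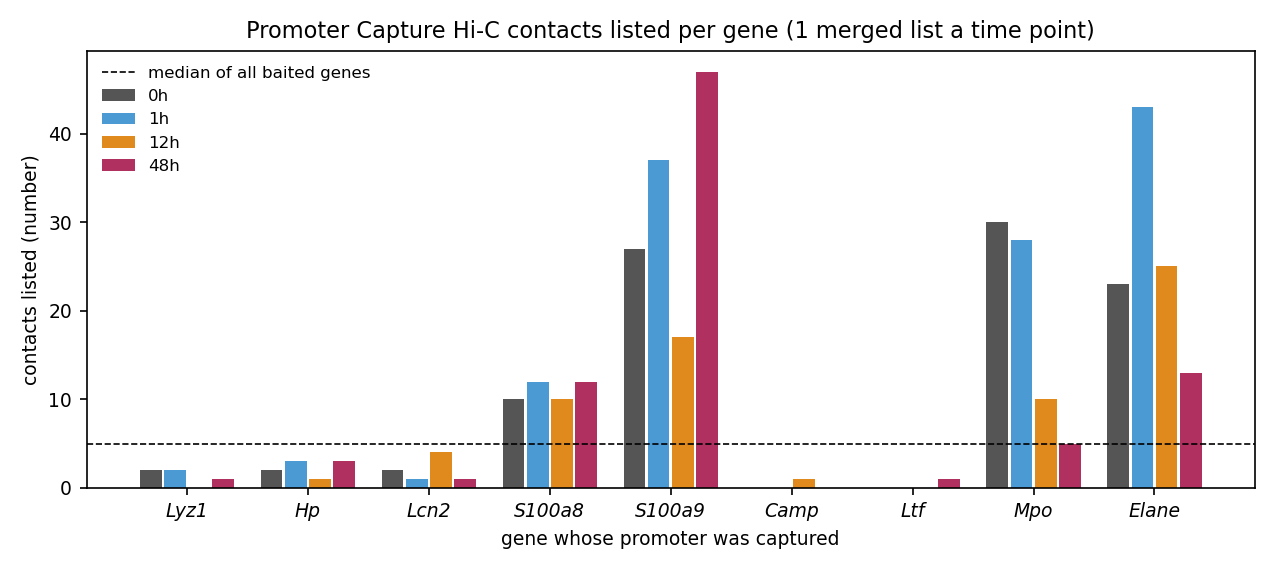
Number of contacts listed for each of the 9 genes with a captured promoter fragment, with a bar for each time point (1 merged list each, no replicates) and a dashed line at the median of all genes with a bait (5). S100a9 has the most at 48h (47), and Mpo goes from 30 at 0h to 5 at 48h.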

How the data were processed

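The 12 RNA-seq libraries and the 4 PCHi-C lists entered, and Hi-C and ChIP-seq did not. The authors trimmed RNA-seq reads (Trim Galore 0.6.2), mapped them to mm10 (HISAT2 2.1.0 is named in the submitters' processing notes) and deposited TPM from RSEM. For PCHi-C the authors merged replicates, called interactions with CHiCAGO at a score of at least 5 and deposited a score per interaction at 0h. The deposited values of the other lists are whole numbers whose unit is not given in the sources used here, and they were not used.

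The filter was a mean of 0.1 TPM or more (16415 genes). The model was fitted to log2(TPM + 0.1) of all 12 libraries by limma 3.58.1 (R 4.3.3), using lmFit and a trended eBayes. Small values depend on the 0.1 added. Depth cannot be read from TPM, so no counting interval or floor is given. On simulated data with 200 changed genes among 16415, the model was tested before use. The changed genes were drawn from genes expressed at 0h. The simulation thus did not cover changes of genes listed at or near 0 at 0h, such as Hp, S100a8, Lcn2 and Camp. The p-values set each difference against the spread between the replicates, labelled as biological, pooled over the 4 time points. Libraries of a time point that are all at 0, as for Hp and S100a8 at 0h, add no spread. The study tested counts with DESeq2, and counts were not used here.

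The 10 genes, the lists and the tests were chosen with earlier results of these data known. Named besides the 10 are, from each list, the 3 most abundant genes called at 12h or 48h, the 5 genes most like Lyz2, Hp and Camp, and nearest neighbours called at 48h. Other genes named (markers, listed genes at or near 0, further neighbours, regulators) were chosen after their values were seen. Neighbours and positions came from GENCODE on GRCm38, in which 100% of the gene IDs matched. Contacts were counted over baits that hold a start of the gene. Alternatives varied the pseudocount, filter, scaling, trend, libraries, replicate block, replicates, fold threshold, bait rule, contact distance, score, contact matching and motif spelling. Python 3.11.15, numpy 2.4.6, pandas 2.3.3, scipy 1.17.1 and matplotlib 3.10.9 were used. No pair of libraries held identical values.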

Additional observations from a re-analysis of the deposited data

Results flagged for a closer look

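For 3 of the genes the change from 0h differed between 12h and 48h by the limma test of 48h against 12h (Benjamini-Hochberg adjusted p under 0.05). The difference in log2 fold change was -4.29 for Camp (adjusted p = 0.000141), -1.56 for Lcn2 (adjusted p = 0.0327) and -0.92 for Lyz2 (adjusted p = 0.00334). In each of these genes all 3 libraries of 48h were below all 3 of 12h. Over all genes tested, 31.7% were lower at this adjusted p and 39.2% had no overlap in this direction. After median-of-ratios scaling the adjusted p was 0.000315 for Camp, 0.132 for Lcn2 and 0.39 for Lyz2. Lcn2 passed the filter only through its 12h libraries, which favoured a fall from 12h, so its result is given as a description.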

How the results depend on the processing

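Of 313 estimates for single genes under the alternatives, 295 kept their direction and their side of the call, 4 lost a call, 5 gained it and 9 changed sign. With 1 TPM added in place of 0.1, 0 of the 10 genes (1 before) were called at 1h and 3 (5 before) at 12h. A filter at a mean TPM of 1 also left 3 at 12h, since Lcn2 and S100a8 were then not tested, and a log2 fold change beyond 1 added Lcn2 to make 2 at 48h against 12h. At 48h against 0h the count of 3 ranged from 2 to 4. It was 4, by the addition of Camp, with 0.01 TPM added, after median-of-ratios scaling, without the second 0h library and at a log2 fold change beyond 1. It was 2 with 1 TPM added and at a mean TPM of at least 1, where S100a8 was not called or not tested. The sign changes were all in estimates that were not called. For Camp at 1h against 0h (0.06) they were -0.10 after median-of-ratios scaling, -0.050 after rescaling without the 20 most abundant genes, and -0.50 to 0.56 when single replicates were left out. For 48h against 12h they were 0.47 and 0.28 for Hp (-0.28) under these 2 scalings, and for S100a8 (0.13) the range when single replicates were left out was -0.27 to 0.57, with -0.27 without the second 12h library and -0.20 without the third 48h library.

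Over all genes, 589 were called higher and 62 lower at 1h, 968 and 301 at 12h, 1056 and 1648 at 48h, and 313 and 866 at 48h against 12h. After median-of-ratios scaling these were 177 and 103, 717 and 426, 1533 and 1248, and 520 and 369, so the share higher went from 90.5% to 63.2%, 76.3% to 62.7%, 39.1% to 55.1% and 26.5% to 58.5%. With 1 TPM added they were 77 and 10, 298 and 102, 407 and 620, and 124 and 216. With 0.01 added 1125 were called higher at 1h and 1483 at 12h. With a mean TPM of at least 1, fewer genes were tested and 267 were higher and 34 lower at 1h, and 609, 646 and 167 were higher at 12h, at 48h and at 48h against 12h. Rescaling without the 20 most abundant genes gave 235 higher at 1h and 454 lower at 48h against 12h. A log2 fold change beyond 1 gave 2746 and 178, 2903 and 944, 2217 and 3793, and 582 and 3910.

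Replicate numbers did not pair the samples throughout, since 7 of 18 pairs with the same number had a correlation of deviations over 0.1 (-0.0123 to 0.257). Of these 7, 5 were among the 6 pairs of replicate 3 (0.0698 to 0.257), whose libraries deviated together. Pairs with different numbers lay between -0.181 and 0.11. Leaving replicate 3 out at every time point, chosen after seeing the data, kept the counts at 1, 5, 3 and 1. With the replicate block 1, 5, 3 and 1 of the 10 genes were called, as without it, and 597 genes were called higher at 1h. Contact counts of S100a8 were 0 at every time point when only the bait with the first base of the gene record was used. Those of Mpo were then 18, 17, 6 and 4 from 0h to 48h.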
